A study of Mus musculus with 2 samples.

Results

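The 9 genes described here are transcription factors that mark positions along the gut, namely Pdx1, Gata4, Gata6, Cdx1, Cdx2, Hnf4a, Hnf4g, Onecut2 and Osr2. They were chosen by symbol from the 56980 genes of the deposited tables. All 9 had at least 1 UMI (a unique molecular identifier, which counts a captured RNA molecule) in each library, as did 27316 genes of the model library and 27487 genes of the control library. The data are droplet-based single-cell RNA counts of mouse small intestine from 1 library labelled model and 1 labelled control. Both came from tissue freed of mesentery and Peyer's patches and digested with EDTA, then with collagenase A and DNase I. The labels name no strain, age, sex, treatment or genotype, do not say what the model is, and do not give the stretch of small intestine or the number of mice behind a library. With 1 library per group there is no replicate check and no test: every interval below is a 95% interval that covers counting error only, and a difference between the libraries cannot be told apart from a difference between 2 samples, or between 2 stretches, of gut.

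The gut epithelium keeps a positional identity from stomach to colon that its stem cells pass on to their daughters. PDX1 acts in the pancreas and duodenum, and GATA4 maintains the identity of the proximal small intestine. CDX1 and CDX2 set intestinal against gastric fate, and HNF4A and HNF4G activate enterocyte genes, many of them for fat absorption. Crypts hold stem and dividing cells, while villi carry absorptive enterocytes that age towards the tip; goblet, enteroendocrine and tuft cells are the secretory and sensory lineages scattered among them.

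The model library held 76701215 UMIs over 11468 barcodes and the control library 61370270 UMIs over 10259 barcodes, with 28 barcodes in both. After filtering, 7913 model cells (median 3761 UMIs) and 7329 control cells (median 3636 UMIs) were left. Of these, 3880 and 4824 fell in clusters taken as epithelial, and 2729 and 2987 in a named epithelial class. The clusters taken as epithelial also held some with T cell, plasma cell or fibroblast markers. They further held an unnamed cluster of low RNA content led by Iglc1 and Jchain, with 543 model and 216 control cells. The median mitochondrial share of the kept cells was 5.38% in the model library and 10.8% in the control library. Crypt-like cells numbered 929 in the model and 707 in the control library, enterocyte-like cells 1259 and 1772, goblet-like cells 316 and 264, enteroendocrine-like cells 158 and 82, and tuft-like cells 61 and 78. Paneth-like cells, with 6 in the model library, were too few for a comparison. A cluster led by Gsdmc4, Gsdmc2, Slc40a1 and Car4, with 474 model and 335 control cells, had too few listed markers to be named and is called the Gsdmc and Car4 cluster. The enterocyte-like class differed in make-up: 761 of its model cells were in a lower to middle villus cluster led by Cyp1a1 and Gsta1, whereas 557 control cells were in a cluster led by Plb1, Nos2 and Tmigd1 that held 15 model cells, and 510 more in a villus-tip cluster led by Clca4a, Slc28a2 and Nt5e. A cluster of low RNA content led by Dcn, Sparc and Col1a1, with 36 model and 1151 control cells, is in no class. The members and the proximal and distal gene lists were not among the genes used for clustering.

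To show the kind of sequence these factors read, the 250 bases before the start of 5 genes were taken from RefSeq (GRCm38.p6). Pdx1 and Cdx2 are shown as neighbouring members on chromosome 5, whose starts lie 37152 bases apart. Fabp1 and Lct are shown as genes of the proximal enterocyte list, and Fabp6 as a gene of the distal one. Capitals mark matches, on either strand, to 5 short motifs: AGATAA for GATA factors, CAAAGNCCA for HNF4, CATAAA for CDX, ATTGAT for ONECUT and TAATTA for PDX1. Windows are, in order, chr5:147269847-147270096 (plus strand), chr5:147307250-147307499 (minus), chr6:71199629-71199878 (plus), chr1:128328319-128328568 (minus) and chr11:43601563-43601812 (minus).
Pdx1: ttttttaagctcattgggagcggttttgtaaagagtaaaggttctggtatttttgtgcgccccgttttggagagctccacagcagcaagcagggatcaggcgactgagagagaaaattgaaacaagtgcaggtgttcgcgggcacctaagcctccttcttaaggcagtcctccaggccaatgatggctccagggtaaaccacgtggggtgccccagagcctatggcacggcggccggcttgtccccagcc
Cdx2: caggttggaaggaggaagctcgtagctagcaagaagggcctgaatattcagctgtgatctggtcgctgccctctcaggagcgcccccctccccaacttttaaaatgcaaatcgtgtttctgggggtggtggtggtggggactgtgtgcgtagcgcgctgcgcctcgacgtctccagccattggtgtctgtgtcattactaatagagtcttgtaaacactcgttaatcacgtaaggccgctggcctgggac
Fabp1: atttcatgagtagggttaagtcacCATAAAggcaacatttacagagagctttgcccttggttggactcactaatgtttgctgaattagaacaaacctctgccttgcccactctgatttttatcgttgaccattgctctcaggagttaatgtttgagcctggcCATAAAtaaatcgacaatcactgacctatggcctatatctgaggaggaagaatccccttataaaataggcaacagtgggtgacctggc
Lct: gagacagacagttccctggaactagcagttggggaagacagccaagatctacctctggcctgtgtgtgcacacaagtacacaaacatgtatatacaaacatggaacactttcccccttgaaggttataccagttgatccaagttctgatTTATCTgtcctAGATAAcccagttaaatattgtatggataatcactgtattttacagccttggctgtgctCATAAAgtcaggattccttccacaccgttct
Fabp6: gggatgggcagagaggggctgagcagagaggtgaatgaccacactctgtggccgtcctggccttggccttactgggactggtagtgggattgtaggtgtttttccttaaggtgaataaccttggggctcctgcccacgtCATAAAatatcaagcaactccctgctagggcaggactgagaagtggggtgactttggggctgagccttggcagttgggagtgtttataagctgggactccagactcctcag
Among 32536 such windows of all genes, 9.97% held the GATA motif, 1.71% the HNF4 motif, 10.8% the CDX motif, 6.60% the ONECUT motif and 4.84% the PDX1 motif. Lct held 2 GATA matches, starting 101 and 90 bases before its start, and 1 CDX match 31 bases before it. The Fabp1 window held 2 CDX matches, 226 and 88 bases before the start, and Fabp6 held 1, at 111 bases. No match overlapped another. The Pdx1 and Cdx2 windows held no match, which says only that these letters are not in these bases.

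Most UMIs of all 9 members were in the clusters taken as epithelial, which held between 96.7% and 98.7% of each gene's UMIs in kept cells in each library. The level over all cells of these clusters, the T cell-like and low-RNA ones included, is called the epithelial level here. T cell-like cells, which should lack these factors, showed 2.79% to 12.8% of the epithelial level in the model library. In the control library they showed 5.48% to 14.7% for 8 members, and 25.8% for Pdx1, where this was 1 UMI. Plasma cell-like cells showed at most 6.44%. Stromal and endothelial-like cells showed more for several members. Hnf4g was at 37.9% in control and 1.44% in model endothelial-like cells. In fibroblast-like cells Gata4 was at 31.4% in the model and 10.8% in the control library, and Osr2 at 31.4% and 12.8%. Pdx1 was at 87.0% in the 53 model fibroblast-like cells, where this was also 1 UMI, and 0% in the control ones. These model cells held 212610 UMIs in all, so their Gata4 and Osr2 shares rest on few UMIs too. Gata6 was at 31.3% of the epithelial level in model and 46.3% in control endothelial-like cells. It was above the epithelial level in mesothelial-like cells, at 275 CPM (163 to 435) from 4 model cells and 332 CPM (213 to 494) from 6 control cells. Genes listed for neighbouring organs differed widely in their UMIs. The listed stomach genes had at most 16 UMIs each in a library, the acid pump gene Atp4a among them with 16 in the model and 8 in the control library, and Muc6 of Brunner's glands had 4 and 2. No cell had an Ins1 or Ins2 UMI, and of the listed pancreas genes Cela1 (988 and 672 UMIs) and Iapp (113 and 65) alone had more than 5. Of the colon genes given here Aqp8 had 308 and 76 UMIs and Aqp4 1374 and 1062, while Car1, Hoxa13 and Hoxd13 had none and Hoxb13 had 1 and 3. Nearly all UMIs of Aqp4 (1361 and 1053) and Iapp (111 and 64) were in the clusters taken as epithelial. Aqp4 was also among the leading genes of a crypt cluster led by Olfm4 and Ascl2. UMIs of these genes are therefore not read as colon or pancreas tissue, whose presence was not tested.

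**Figure D1:**
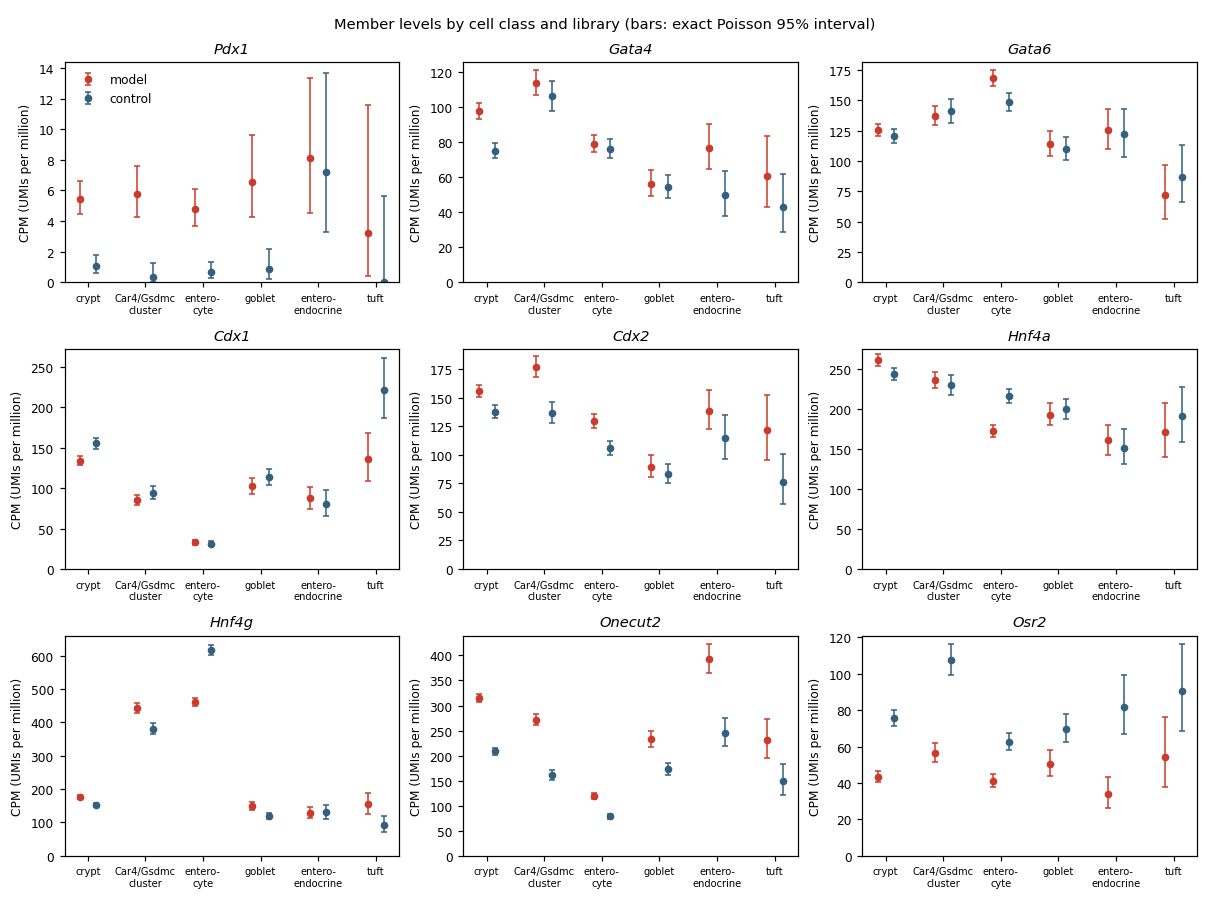
CPM (vertical axis; UMIs of a gene per 1000000 UMIs of its class) of each member in 6 cell classes, model in red and control in blue, with exact Poisson 95% intervals. Pdx1 and Onecut2 points of the model lie above those of the control in crypt cells, enterocytes and goblet cells, and Osr2 points lie below them in all 6 classes.

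Of the 9 members, 3 set the libraries apart in most epithelial classes: Pdx1 and Onecut2 were higher and Osr2 was lower in the model library. Levels are given as CPM, the UMIs of a gene per 1000000 UMIs summed over the cells of a class. A member was called higher or lower where its level differed by 1.5-fold or more, the interval of the ratio excluded 1, and the class held at least 20 of its UMIs. In crypt-like cells 2 of 9 members were higher and 1 was lower, where the same rule called 1.8% of the 13865 genes measured higher and 3.9% lower. The 2 higher members were again Pdx1 and Onecut2 in the Gsdmc and Car4 cluster (background 2.03% higher and 4.76% lower) and in enterocytes (17% and 9.54%), and Osr2 was the 1 lower member in both. Goblet cells had 1 member higher, Pdx1, and none lower (4.32% and 5.44%). Their 2 clusters differed in what was called. In the one led by Zg16 and Clca1, with 237 model and 188 control cells, Cdx2 (68.0 and 36.0 CPM; 1.89, 1.41 to 2.57) and Hnf4g (157 and 87.2 CPM; 1.81, 1.49 to 2.19) were higher (background 13.9% higher and 2.84% lower). In the one led by Ccl9 and Agr2, with 79 and 76 cells, Osr2 was lower at 42.2 and 74.6 CPM (0.566, 0.427 to 0.743; background 2.31% and 2.96%). Enteroendocrine cells had 2 higher, Gata4 and Onecut2, and Osr2 lower (3.94% and 5.13%). Of 8 members measured in tuft cells, 3 were higher, Cdx2, Hnf4g and Onecut2, and 2 lower, Cdx1 and Osr2 (8.09% and 7.01%). The median log2 ratio of the members was 0.18 in crypt cells against −0.03 for all genes, and 0.09 in enterocytes against 0.11. The median mitochondrial share was 6.05% in model and 7.61% in control crypt cells, and 14.99% and 17.9% in enterocytes; its part in these differences was not tested.

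**Figure D2:**
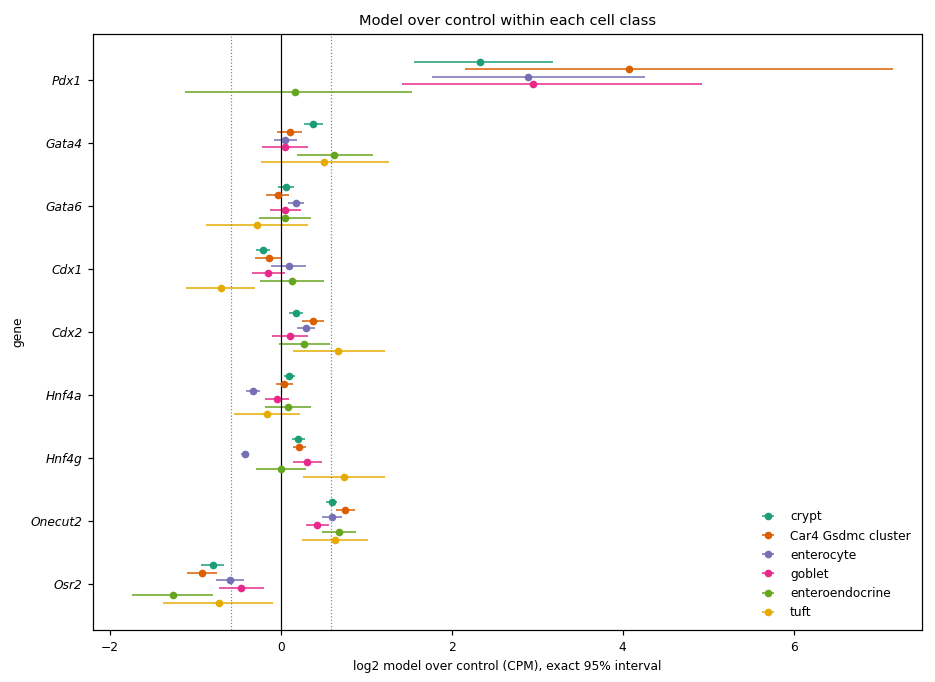
Log2 ratio of the model to the control level (horizontal axis) of each member in 6 cell classes, with exact 95% intervals; dotted lines mark 1.5-fold in either direction. Onecut2 ratios lie right of 0 and Osr2 ratios left of 0 in every class shown, while Gata6 and Hnf4a ratios stay between the dotted lines.

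Pdx1 (ENSMUSG00000029644), the pancreatic and duodenal homeodomain factor, was the rarest member and the one with the widest ratio. Crypt cells held 102 UMIs in the model library, or 5.45 CPM (4.45 to 6.62), and 16 in the control library, or 1.09 CPM (0.622 to 1.77), a ratio of 5.01 (2.94 to 9.10). Enterocytes held 64 and 7 UMIs (ratio 7.44, 3.41 to 19.2), goblet cells 26 and 4 (7.71, 2.68 to 30.4), and the Gsdmc and Car4 cluster 50 and 2 (16.9, 4.43 to 143). Enteroendocrine cells were the exception, with 15 model and 9 control UMIs, or 8.09 and 7.21 CPM (ratio 1.12, 0.460 to 2.91). In the control library that was 6.63 times the crypt level (2.58 to 15.9), from UMIs in 4 cells, whereas in the model library the enteroendocrine and crypt levels did not differ beyond counting error (1.48, 0.801 to 2.56). Tuft cells held 2 model UMIs and 0 control UMIs. No cell held more than 4 Pdx1 UMIs. The 73 model crypt cells with a Pdx1 UMI had a median of 28719 UMIs, against 13346.5 in the 856 without, so whether a cell showed Pdx1 moved with its depth. At 2000 UMIs per cell, 0.822% of model and 0.435% of control crypt cells had a Pdx1 UMI (7.86% and 2.12% unthinned), against 0% of model and 0.106% of control T cell-like cells; these shares are too near 1 UMI to be compared.

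Onecut2 (ENSMUSG00000045991), a cut-homeodomain factor of the ONECUT family and known from liver, pancreas and neurons, was higher in the model library in 5 of 6 classes. Its crypt level was 314 CPM in the model library (306 to 322) and 209 in the control library (201 to 216), a ratio of 1.51 (1.44 to 1.57) just past the 1.5-fold limit. The ratio fell short of the limit in 7 of 16 other settings, where it stayed above 1. Among the 16, those with no UMI minimum and without the cluster led by Plb1, Nos2 and Tmigd1 repeat the crypt ratio by construction. Enteroendocrine cells had 393 and 245 CPM (1.60, 1.40 to 1.84), tuft cells 232 and 150 (1.55, 1.19 to 2.02), the Gsdmc and Car4 cluster 271 and 161 (1.68, 1.56 to 1.82), and enterocytes 119 and 78.5 (1.51, 1.39 to 1.64). In goblet cells the levels were 233 and 173 CPM, a ratio of 1.34 (1.22 to 1.48) below the limit. Of 10 named epithelial clusters set side by side, Onecut2 was above 1 in all 10 and called in 4. In both libraries the order of the named classes by Onecut2 was enteroendocrine, crypt, goblet, tuft and enterocyte, though the intervals of goblet and tuft cells overlapped. Onecut1 had no UMI in crypt cells, enterocytes, goblet or enteroendocrine cells, and Onecut3 had 79.3 CPM in model and 23.3 in control enteroendocrine cells (ratio 3.41, 2.28 to 5.27).

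Osr2 (ENSMUSG00000022330), a zinc-finger factor of the odd-skipped family, went the other way. Its crypt level was 43.3 CPM in the model library and 75.4 in the control library, a ratio of 0.574 (0.524 to 0.629). Enteroendocrine cells had 34.0 and 81.8 CPM (0.416, 0.299 to 0.575), the Gsdmc and Car4 cluster 56.6 and 107 (0.527, 0.467 to 0.594), tuft cells 54.4 and 90.3 (0.603, 0.383 to 0.935) and enterocytes 41.3 and 62.5 (0.660, 0.589 to 0.740). Goblet cells had 50.6 and 69.7 CPM, a ratio of 0.726 (0.606 to 0.868) that did not pass the 1.5-fold limit. In enterocytes neither call was met without the Plb1 and Tmigd1 cluster: there the log2 ratio was 0.28 (0.15 to 0.40) for Onecut2, against 0.60 with it, and −0.46 (−0.64 to −0.27) for Osr2, against −0.60; the Osr2 value stayed within the interval of the whole class (−0.76 to −0.43). The Onecut2 call in enterocytes was lost in 9 of 16 other settings, with a log2 ratio of 0.18 at a mitochondrial limit of 10%, and the Osr2 call in 5 of 16, these counts including the setting without that cluster.

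Gata4 (ENSMUSG00000021944), the zinc-finger factor of proximal identity, differed less. It had 97.9 CPM in model crypt cells and 75.2 in control crypt cells, 114 and 106 in the Gsdmc and Car4 cluster, 78.9 and 76.3 in enterocytes, and 56.1 and 54.3 in goblet cells. None of these passed the limit. Enteroendocrine cells were the 1 class called, at 76.6 and 49.7 CPM, from 142 and 62 UMIs. Gata6 (ENSMUSG00000005836), its close relative, was called in no class, with 125 and 120 CPM in crypt cells, 168 and 149 in enterocytes, and 114 and 110 in goblet cells. Gata5, another member of the family, had 67.1 and 68.6 CPM in enterocytes.

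Cdx1 (ENSMUSG00000024619) and Cdx2 (ENSMUSG00000029646), the caudal-type homeodomain factors, were not called in crypt cells, enterocytes or goblet cells taken whole. Crypt cells had 134 model and 155 control CPM of Cdx1, and 156 and 138 CPM of Cdx2. Tuft cells, the class with the fewest cells compared, had less Cdx1 in the model library, at 136 against 222 CPM, and more Cdx2, at 122 against 76.5. In the control library Cdx1 was highest in tuft cells. Among 8 listed CDX-dependent genes in crypt cells 1 was higher and none lower, the sucrase gene Sis at 94.5 model and 52.6 control CPM, against 1.8% and 3.9% of all genes. In enterocytes 3 of the 8 were lower, Alpi, Muc2 and Mep1a, against 9.54% of all genes. In goblet cells 6 were higher, against 4.32%. For 3 of them, Lct, Alpi and Mep1a, the control goblet level was below that of control T cell-like cells (for Lct 35.6 against 48.0 CPM). These levels are not read as goblet expression, and the source of the UMIs was not tested. Sis, also higher, had 448 model and 160 control CPM in goblet cells, beside 80.0 and 77.0 in T cell-like cells.

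Hnf4a (ENSMUSG00000017950) had 261 model and 244 control CPM in crypt cells and 172 and 216 in enterocytes, and no class was called. Hnf4g (ENSMUSG00000017688), its paralogue in enterocytes, had 461 and 617 CPM in enterocytes, a ratio of 0.746 (0.721 to 0.773) short of the limit, and 176 and 153 in crypt cells. Of 7 measured HNF4-dependent lipid genes in enterocytes, 2 were lower in the model library, against 9.54% of all genes, Apoa1 at 9749 against 18305 CPM and Apob at 2319 against 3667, and Fabp2 had 9613 against 7411. In goblet cells 6 of the 7 were higher, against 4.32% of all genes. For 4 of these, Apoa1, Apoa4, Apob and Apoc3, control goblet cells had no more than control T cell-like cells (for Apoa1 943 against 1468 CPM). Their goblet levels are not read as goblet expression there, and the source of these UMIs was not tested. Mttp had 330 model and 141 control CPM in goblet cells, beside 99.6 and 101 in T cell-like cells. Fabp2 had 2210 and 1338 CPM, beside 247 and 324. Hnf4g in goblet cells was 148 and 119 CPM and was not called over the whole class.

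**Figure D3:**
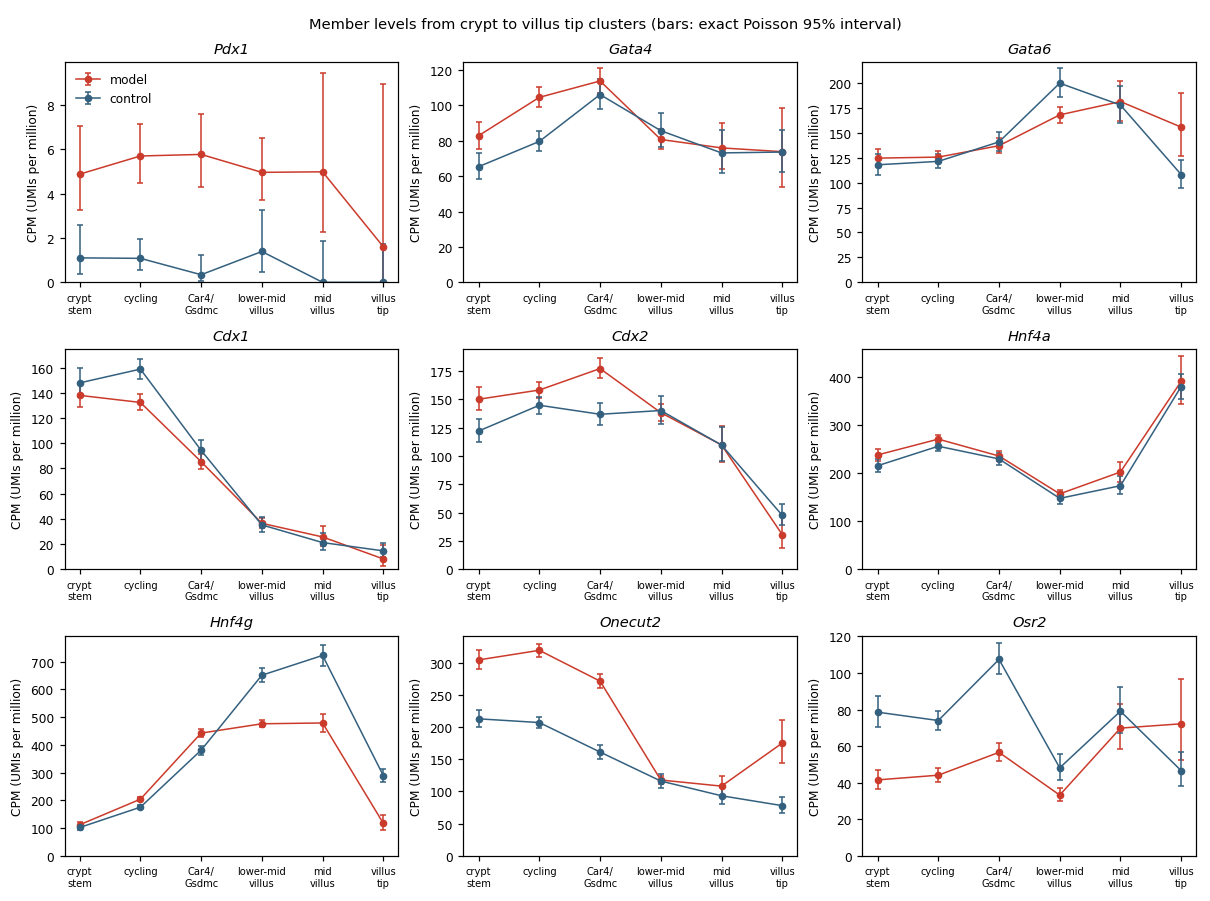
CPM (vertical axis) of each member in 6 clusters ordered from crypt stem to villus tip, model in red and control in blue, with exact Poisson 95% intervals. Hnf4g peaks in the villus clusters before the tip, Hnf4a is highest at the tip, and Cdx1 and Cdx2 are lowest there in both libraries.

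Hnf4g, Cdx1 and Onecut2 differed between enterocytes and crypt cells in the same direction in both libraries, though not always by the same amount. The share of members called was below that of all genes in each direction and library. Enterocytes over crypt cells, Hnf4g was higher, at 2.62 times (2.51 to 2.73) in the model and 4.04 times (3.85 to 4.24) in the control library. Cdx1 was lower, at 0.247 (0.223 to 0.273) and 0.2004 (0.178 to 0.225), and so was Onecut2, at 0.377 (0.357 to 0.399) and 0.376 (0.348 to 0.406). Hnf4a was lower in the model library, at 0.660 (0.628 to 0.694), and short of the limit in the control library, at 0.886 (0.841 to 0.934). Pdx1, Gata4, Gata6, Cdx2 and Osr2 lay between 0.591 and 1.34 in both libraries and none was called. That made 1 member higher and 3 lower in the model library, against 19.2% and 47.8% of all genes, and 1 and 2 in the control library, against 20.5% and 51.5%.

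The villus tip differed from the rest of the villus. In the tip cluster Hnf4a reached 392 CPM in the model and 381 in the control library, 1.501 (1.31 to 1.71) and 1.56 (1.45 to 1.69) times the crypt level. Cdx2 was at 30.5 and 47.5 CPM, against 138 and 140 in the lower to middle villus cluster, and Cdx1 at 8.02 and 14.4, from 5 and 31 UMIs. Osr2 at the tip was above the crypt level in the model library, at 1.67 times (1.21 to 2.25), and below it in the control library, at 0.618 (0.498 to 0.759). Hnf4g was at 117 and 289 CPM at the tip, against 476 and 651 lower on the villus. The tip cells of both libraries together had a median mitochondrial share of 18.7%, against 10.6% in the lower to middle and 20.4% in the middle villus cluster; its part in these levels was not tested.

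The members called against crypt cells differed between the secretory and sensory lineages, and none was called in every lineage of a library. In goblet cells the share of members called was below that of all genes. Goblet cells had less Cdx2, at 0.576 of the crypt level (0.515 to 0.644) in the model and 0.606 (0.543 to 0.676) in the control library, and in the model library also less Gata4 (0.574). That was 2 of 9 members lower in the model library, against 35.1% of all genes lower and 13% higher, and 1 lower in the control library, against 29.9% and 11.2%. Enteroendocrine cells had less Hnf4a in both libraries, at 0.616 and 0.622, and less Cdx1, at 0.652 and 0.516. With Gata4 lower (0.661) and Pdx1 higher in the control library, 2 members were lower in the model library (background 9.83% lower, 20.9% higher), and 3 were lower and 1 higher in the control library (14% and 21.7%). Tuft cells had less Gata4 in both libraries, at 0.621 and 0.570. Gata6 and Hnf4a were also lower there in the model library (background 10.2% lower, 11.6% higher), and Cdx2 and Hnf4g in the control library (17.5% and 14.6%).

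Set side by side within single clusters, the libraries differed by amounts that varied from cluster to cluster. In the lower to middle villus cluster Onecut2 was at 118 model and 116 control CPM, a ratio of 1.01 (0.906 to 1.14), and in the middle villus cluster led by Tmprss15 and Cubn at 108 and 93.1 (1.16, 0.945 to 1.43). At the tip it was at 175 and 77.8 (2.25, 1.75 to 2.88). Osr2 was at 33.2 and 48.1 CPM in the lower to middle cluster (0.690, 0.573 to 0.833), at 69.9 and 79.1 in the middle cluster (0.883, 0.693 to 1.12), and at 72.2 and 46.6 at the tip (1.55, 1.07 to 2.22). The lower to middle cluster had 1 member called, Pdx1, higher (background 3% higher, 2.86% lower), and the middle cluster had Hnf4g lower, at 479 and 723 CPM (6.02% and 2.64%). The tip had Onecut2 and Osr2 higher and Hnf4g lower, 3 of 8 members measured, against 6.02% and 8.91% of all genes. An enterocyte cluster led by Ifit3 and Ifit1 held 59 model and 65 control cells. There Hnf4g was the 1 member called, lower at 485 and 768 CPM (0.631, 0.538 to 0.741; background 14% higher and 6.95% lower). Its Onecut2 ratio was 1.54 (0.996 to 2.44) and was not called. The Plb1 and Tmigd1 cluster, nearly all control cells, had 53 Onecut2 UMIs or 19.5 CPM (14.6 to 25.5) in the control library, the lowest of its enterocyte clusters. It also had 89.1 CPM of Gata6, against 178 and 200 in the middle and lower to middle clusters of the same library, and no Pdx1 UMI. Its Gata4 level was 70.4 CPM, against 73.1 and 85.7 in those 2 clusters, and its Hnf4g level 730, against 723 and 651. In crypts, Onecut2 was at 319 model and 207 control CPM in cycling cells and at 304 and 213 in stem-like cells, where the ratio of 1.43 fell short of the limit. Osr2 was at 44.1 and 74.0 in cycling cells and at 41.5 and 78.6 in stem-like cells. With Pdx1, this made 2 members higher and 1 lower in cycling cells (background 1.93% and 4.24%) and 1 higher and 1 lower in stem-like cells (1.86% and 2.43%).

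Effector genes of gut position gave a second reading of the same cells. In enterocytes, 6 of 16 measured proximal genes were higher and 2 lower in the model library, and 7 of 9 distal genes were lower and none higher, against 17% and 9.54% of all genes. Fabp1, a fatty acid carrier, had 15045 model and 6784 control CPM, but the proximal genes Npc1l1, a cholesterol transporter, and Cyp3a11 were lower, and the lactase gene Lct had 551 and 727. The phosphate transporter gene Slc34a2 had 21.6 and 372 CPM, Tmigd1 3.66 and 107, and the phospholipase gene Plb1 had 1 model and 1405 control UMIs. The bile acid transporter gene Slc10a2, a mark of the terminal ileum, had 4 and 50 UMIs. UMIs of Fabp6 or Slc10a2 were found in 4 model and 43 control enterocytes. In crypt cells 7 of 15 proximal genes were higher and 1 lower, and 2 of 10 distal genes were higher, the bile acid exporter genes Slc51a and Slc51b, and 6 lower, against 1.8% higher and 3.9% lower of all genes. Fgf15, the ileal hormone induced by bile acids, had 1 and 28 UMIs there. Fabp6 was not limited to the control library in crypt cells. Among those without a Pdx1 UMI, 27 of 856 model and 29 of 692 control cells held Fabp6. Among those with a Pdx1 UMI, 6 of 73 model and 1 of 15 control cells did. Among enteroendocrine hormones, distal Pyy had 39.4 model and 1837 control CPM and Nts 1635 and 4927, whereas Gcg had 1971 and 1138. Of 4 proximal hormones measured, 2 were lower in the model library and none higher, against 5.13% and 3.94% of all genes. Gip was among the lower ones, at 7328 and 12434. Cck, at 16315 and 10902, fell just short of the 1.5-fold limit and was not called. Nr1h4, the bile acid receptor, had 17.2 and 22.7 CPM in crypt cells and was not called, and the enterocyte factor Creb3l3 had 35.8 and 20.1 and was called higher.

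**Figure D4:**
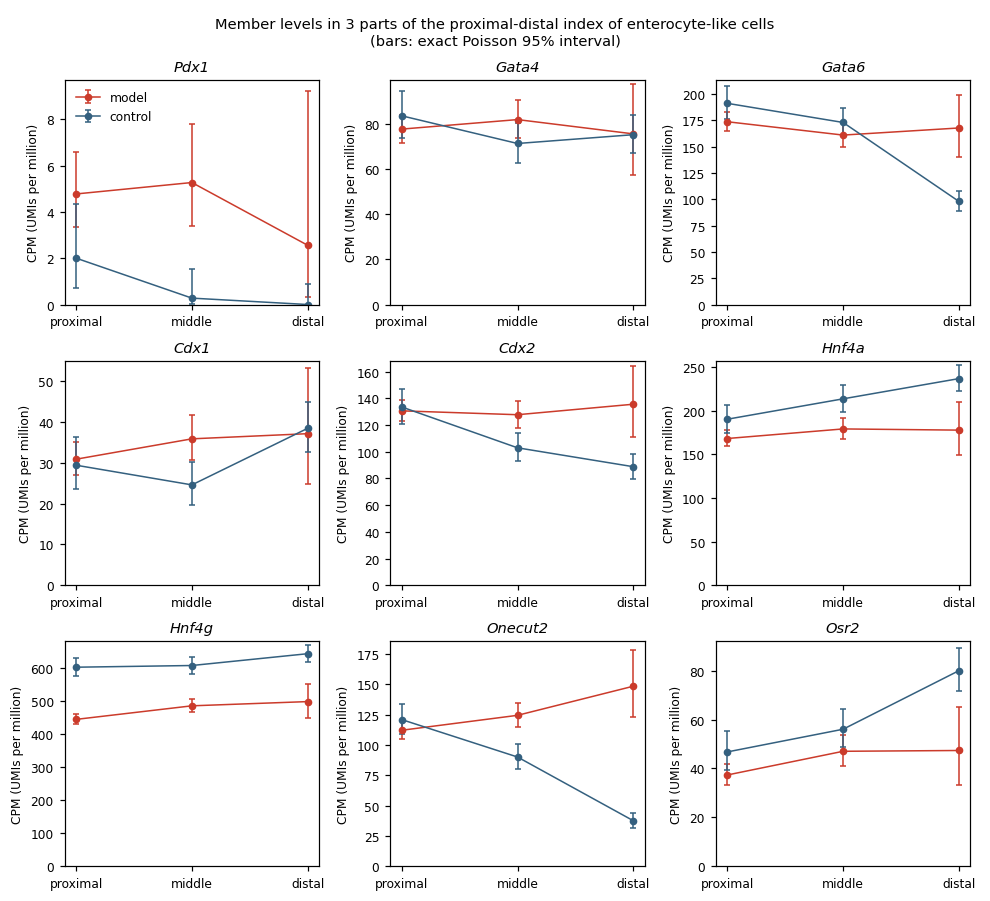
CPM (vertical axis) of each member in enterocyte-like cells cut into 3 equal parts by a proximal to distal index, model in red and control in blue, with exact Poisson 95% intervals. In the control library Onecut2 steps down from the proximal to the distal part, while Gata4 is level in both libraries.

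To ask whether the members follow such effectors from cell to cell, enterocytes with at least 2000 UMIs were thinned to that depth and ranked by the log2 ratio of proximal to distal list UMIs. The 2806 cells, with 225 shallower ones left out, were cut into 3 equal parts over both libraries at 2.96 and 4.29. The parts are ranges of an index and not cell types: 310 cells lay within 0.25 of the lower limit and 363 within 0.25 of the upper one. The model library had 630, 434 and 104 cells in the proximal, middle and distal parts, and the control library 306, 501 and 831. The distal part of the control library drew 444 cells from the Plb1 and Tmigd1 cluster, whose leading genes Plb1, Tmigd1 and Slc34a2 are on the distal list, and 213 from the tip.

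Within the control library Onecut2 had 121, 90.0 and 37.4 CPM in the proximal, middle and distal parts, so that the distal level was 0.310 of the proximal one (0.255 to 0.375). Gata6 was also lower distally, at 0.512 (0.450 to 0.583), and Cdx2 at 0.665 (0.575 to 0.768), while Osr2 was higher, at 1.71 (1.40 to 2.10). Pdx1 had 6, 1 and 0 UMIs. Gata4 had a ratio of 0.900 (0.759 to 1.07), Hnf4g of 1.07 and Hnf4a of 1.24, and none of these was called. That is 3 members lower and 1 higher, against 16.9% and 9.1% of all genes. In the model library none of the 9 was called (background 9.79% higher and 4.19% lower). There Onecut2 had 112, 124 and 148 CPM from proximal to distal, and its ratio was 1.32 (1.08 to 1.61). Cluster make-up moved with the index, and its part in these ratios was not tested over all clusters. Within single control clusters Onecut2 followed it at the tip, at 40.3 distal and 150 proximal CPM (0.269, 0.176 to 0.404). In the lower to middle and the middle villus clusters the ratios were 0.866 (0.600 to 1.22) and 0.788 (0.512 to 1.21), and did not pass the limit. Other members differed between clusters too. At the tip Hnf4g was higher distally, at 375 and 179 CPM (2.09, 1.65 to 2.69), and Cdx1 also, from 19 and 2 UMIs (4.78, 1.15 to 42.3). Gata6 (0.657, 0.480 to 0.894) and Cdx2 (0.520, 0.345 to 0.774) were lower distally in the middle villus cluster, and Osr2 was higher in the lower to middle one (2.06, 1.33 to 3.13).

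Between libraries, none of the 9 members was called among proximal cells. There Onecut2 had 112 model and 121 control CPM (0.927, 0.819 to 1.05), Osr2 37.3 and 46.8 (0.798, 0.650 to 0.984), and Pdx1 37 and 6 UMIs (2.38, 0.998 to 6.91), against a background of 5.18% of genes higher and 4.34% lower. In the middle part Pdx1 was the 1 member called, with 25 and 1 UMIs (19.1, 3.13 to 784), against a background of 16.8% higher and 6.94% lower. In the distal part Onecut2 (148 and 37.4 CPM; 3.96, 3.09 to 5.08), Gata6 (168 and 97.9; 1.71, 1.39 to 2.09) and Cdx2 (136 and 88.8; 1.53, 1.22 to 1.90) were higher and Osr2 (47.3 and 80.0; 0.592, 0.409 to 0.833) was lower in the model library, where 24.2% of all genes were called higher and 10.4% lower. The 104 model cells of that part had a median index of 2.65 and the 831 control cells 1.87, so the model cells of the distal part lay nearer its border.

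**Figure D5:**
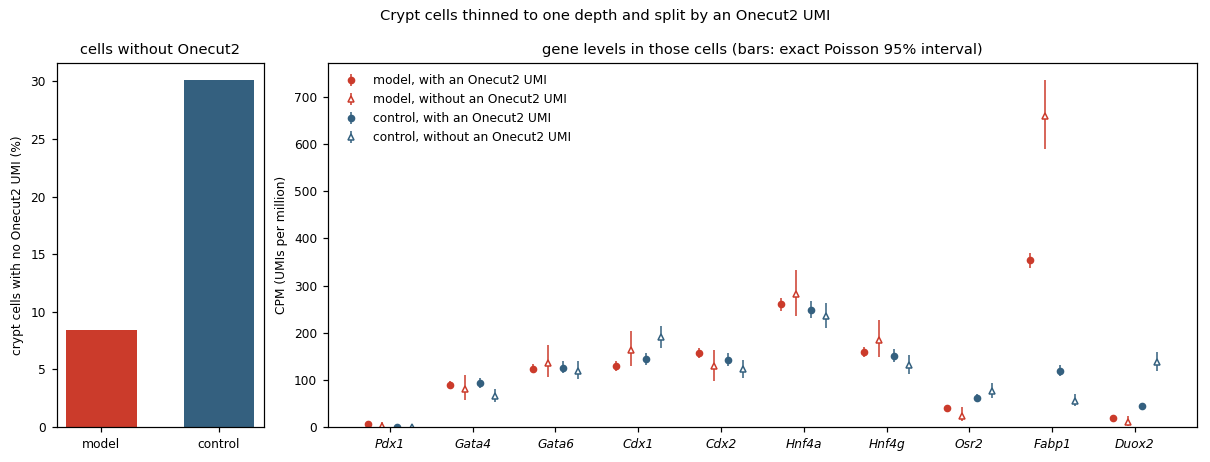
Left, share of crypt-like cells with no Onecut2 UMI (bars from 0), model 8.39% and control 30.1%, among cells with at least 10000 UMIs, each thinned to that depth. Right, CPM of the other members and of Fabp1 and Duox2 in the same cells with (circles) and without (open triangles) an Onecut2 UMI, with exact Poisson 95% intervals; control cells without one are lower in Fabp1 and higher in Duox2 and Cdx1.

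Control crypt cells were less uniform in Onecut2 than model crypt cells. If every crypt cell of a library had the same Onecut2 share of its UMIs, 12.5% of model cells and 14.5% of control cells would have no Onecut2 UMI; 14.9% and 30.4% had none. The excess of cells without a UMI was thus 2.32 percentage points in the model and 15.9 in the control library. In control crypt cells it was at most 4.95 points for Pdx1, Gata4, Gata6, Cdx1, Hnf4a and Osr2, 10.05 for Cdx2 and 9.97 for Hnf4g. The excess for Onecut2 was 6.54 points in model and 20.8 in control goblet cells, and 4.67 and 21.0 in enteroendocrine cells; Hnf4g had 21.4 and 23.6 points in goblet cells, so a large excess was not limited to Onecut2 or to the control library there. At 2000 UMIs per cell an Onecut2 UMI was found in 44.6% of 852 model and 28.6% of 690 control crypt cells (85.1% and 69.6% unthinned, at median depths of 14453 and 16242 UMIs), against 1.89% and 1.17% of T cell-like cells (2.96% and 2.01% unthinned, at 2664 and 2980.5 UMIs).

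Crypt cells with at least 10000 UMIs were also thinned to that depth, which was chosen after the values were seen. Shallower ones of the 929 model and 707 control crypt cells were left out. Of the cells kept, 535 model and 316 control cells, or 91.6% and 69.9%, had an Onecut2 UMI. Among these the level was 331 model and 303 control CPM. Each was picked for holding at least 1 Onecut2 UMI, so these levels cannot show whether the libraries differ. The 136 control cells without one had 190 CPM of Cdx1 (168 to 215), against 144 (131 to 158) in the 316 with one. They had 65.4 CPM of Gata4 (52.6 to 80.5) against 92.7 (82.4 to 104), and 76.5 Osr2 (62.5 to 92.7) against 61.4 (53.1 to 70.7), the last with overlapping intervals. Outside the members, Duox2, an epithelial NADPH oxidase gene named after its values were seen, had 138 CPM (119 to 159) without and 44.0 (37.0 to 51.9) with an Onecut2 UMI, and Fabp1 had 55.9 and 120. In the model library the 49 cells without and the 535 with an Onecut2 UMI had 163 and 129 CPM of Cdx1, and Duox2 had 10.2 and 19.6, while Fabp1 ran the other way than in the control library, at 659 and 354.

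The members fell into loose groups by Pearson's r of log2 levels across 31 cluster and library sums of the clusters taken as epithelial, which share libraries and depth. These sums include clusters with T cell or fibroblast markers and others of low RNA content. The part of epithelial content in these correlations was not tested. Gata4 correlated with Gata6 (0.72), Cdx2 (0.70) and Hnf4a (0.60), Onecut2 with Pdx1 (0.60) and Cdx1 (0.51), and Onecut2 ran against Hnf4g (−0.57) and Osr2 (−0.32). Among 11611 genes with at least 200 epithelial UMIs, those most like each member were Syngr2, Mat2a and Polr2f for Cdx1 (0.96, 0.95 and 0.95), Ap1ar, Mtch2 and Prdx1 for Cdx2 (0.94, 0.92 and 0.92), and Smim24, Maoa and Cryl1 for Hnf4g (all 0.94). Gata4 was most like Mal2, Capza2 and the CDX-dependent factor gene Isx (0.87, 0.86 and 0.85). Hnf4a was most like the epithelial adhesion genes Epcam and Cldn7 (0.86 and 0.79), then Snx7 (0.78), and Gata6 most like Sucla2, Gsto1 and Cycs (0.85, 0.82 and 0.80). Onecut2 was most like Actg1, Sac3d1 and C2cd3 (0.84, 0.84 and 0.83). Pdx1, with 310 epithelial UMIs in all, was most like Prdm16, Armc9 and Pou5f2 (0.69, 0.68 and 0.67) and Osr2 most like Unc45a, Gm37760 and Gtf2f1 (0.61, 0.60 and 0.57), so neither had a close match.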

How the data were processed

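Per the labels' protocols, small intestine was dissociated and sequenced with a droplet-based kit; whether the 2 libraries hold 1 or several mice is not given. The authors' deposited UMI counts per gene and barcode were used as raw counts. Per the file headers they came from Cell Ranger 7.0.1, but Cell Ranger 4.0 and the build GRCm39 stand in the submitters' processing notes. Which annotation was used, and whether intronic reads were counted, is not stated there, and overlapping genes could not be told apart by strand. Positions in the text are of RefSeq on GRCm38.p6 and are not the files' build.

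Barcodes under 500 UMIs or 200 genes, or above 25% mitochondrial UMIs, were dropped and the others clustered with scanpy 1.11.5 (2000 variable genes, 30 components, 15 neighbours, Leiden resolution 1), then epithelial cells were clustered again. A cluster was named where at least 3 listed markers were 2-fold above the other cells. Doublets were not removed in the main values: Scrublet called 0 cells, so it did not work here, and the 8% of cells with the highest scores were left out as an alternative. UMIs were summed per class and library. Levels have exact Poisson intervals, shares exact Clopper-Pearson ones and ratios exact binomial ones, all at 95%. The ratio rule was tested on simulated data.

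The members, gene lists and rules were chosen with earlier results of these data known. Named genes are the 9 members, the 3 highest and 3 lowest ratios of each list or a choice from them, and a fixed set that holds Fabp1, Lct, Slc10a2, Gip, Pyy, Nts, Nr1h4 and Creb3l3; 1 gene of the set is not reported here. Alternatives changed the mitochondrial limit, UMI minimum, clustering genes and resolution, naming, doublets, scaling (TMM from edgeR 4.0.16 included), weighting and thinning. 5 lists (proximal, distal, HNF4, CDX and hormones) are reported with the members; of the list of 24 other gut transcription factors 20 were measured in crypt cells, 1 higher and 2 lower.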

Additional observations from a re-analysis of the deposited data

Results flagged for a closer look

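Hnf4g and Osr2 were each called in opposite directions in different epithelial clusters; whether those ratios differ was not tested. Hnf4g was higher in the model library in the goblet cluster led by Zg16 and Clca1, with a model over control ratio of 1.81, and lower in the villus-tip cluster, with 0.405. Osr2 was higher in the villus-tip cluster, with a ratio of 1.55, and lower in the enteroendocrine cluster led by Sst and Cck, with 0.449. The villus-tip cluster held 129 model and 510 control cells.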

How the results depend on the processing

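No paired analysis was possible because each group has 1 library. With 1 library a group, no library could be left out. Over 16 other settings the log2 ratio in crypt cells ran from 0.50 to 0.72 for Onecut2, from 0.92 to 2.60 for Pdx1 (lowest when cells were thinned to 2000 UMIs) and from −1.13 to −0.70 for Osr2. Not all of these could change a ratio. The setting with no UMI minimum repeats every main ratio by construction, and leaving out the Plb1 and Tmigd1 cluster can change enterocyte ratios only. The main counts of members called were 3 in enterocytes, 1 in goblet cells and 5 in tuft cells. With no mitochondrial limit they were 1 in enterocytes and 2 in goblet cells. Without the Plb1 and Tmigd1 cluster, an alternative chosen after seeing the data, 1 member was called in enterocytes. Goblet cells had 2 when each cell was named by its own marker score or weighted equally, and 3 when thinned. Tuft cells had 3 at Leiden resolution 0.5 and 1 when thinned, where the log2 ratio of Cdx2 turned to −0.026. Distal over proximal in the model library, the index without each list's most abundant gene and cells thinned to 1000 UMIs each called 1 member, against 0. For single genes, 661 values stayed within the main interval, 67 moved outside it, and 1 called value, that of Cdx2, turned. The 661 include values that repeat the main ratio by construction. Values not called in the main setting could change side without being counted as turned. The main direction was kept in 9 of 16 settings for Cdx1 in enterocytes, and in 10 of 16 for Hnf4g in enteroendocrine cells. Of the other results, mostly counts of members called, 91 stayed the same and 10 moved, each given above. The cause of these changes was not tested.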
